A study of Caenorhabditis elegans with 2 samples.

Results

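The 258 microRNA genes of Caenorhabditis elegans were examined for binding by UNC-62, a homeodomain transcription factor of the Meis class that acts with Hox and Pbx proteins. They are the genes whose RefSeq symbol begins with mir-, together with let-7, lin-4 and lsy-6, out of 46926 annotated genes. A microRNA is cut from a hairpin in a longer primary transcript, and its seed, bases 2 to 8 of the mature strand, pairs with messenger RNAs and lowers their output. In worms, lin-4 and the let-7 family time the larval divisions, lsy-6 sets the left and right difference of a pair of taste neurons, and the mir-51 family has roles in embryonic growth and in attaching the pharynx.

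Binding was mapped by ChIP-seq, which sequences the sheared chromatin that an antibody recovers, in 2 biological replicates of 1 group. Both were whole worms of strain OP600, genotype unc119(ed3) with the transgene wgIs600 (unc-62::TY1 EGFP FLAG and unc119), in which UNC-62 carries a GFP-FLAG tag at its C-terminus. Males and females and all tissues were pooled, the age is unknown, the antibody is given as unc-62, and the stage is dauer in one label but D4 worms in another. No untagged strain or other stage was analysed here, and read depth is unknown.

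A summit was the point the authors marked within an enriched region, and a gene was counted when a summit lay from 1000 bp upstream to 200 bp downstream of its annotated start. Build ce11 has the same sequence as WBcel235, the assembly of the gene models. The authors' pooled list, made from both replicates together, held 2136 nuclear regions, and their list that passed the irreproducible discovery rate threshold, called reproducible here, held 76. The pooled and replicate lists are labelled as peaks and background together. Each replicate list held 30000 regions, of which 201 in replicate 1 and 136 in replicate 2 had a q value below 0.05, so replicates were compared by rank and by their first 1000 regions. Signal is the authors' own value for each region, on a scale that is not stated. The lowest q value in the pooled list was 0.151, so no pooled region reached 0.05.

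Mature strands are printed for 3 seed groups: those of the clusters in which 1 summit lay before 3 genes, and that of let-7. In each line the mature strand runs 5′ to 3′ with its seed in capitals, read from the WBcel235 sequence at the RefSeq positions. The first group is the mir-51 family, in which 6 genes share the seed ACCCGUA. In mir-51, mir-52 and mir-53 on chromosome IV this seed is on the 5′ arm of the hairpin, and in mir-54, mir-55 and mir-56 on X on the 3′ arm.
mir-51: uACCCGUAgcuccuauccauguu
mir-52: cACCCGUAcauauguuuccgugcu
mir-53: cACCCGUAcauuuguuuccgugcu
mir-54: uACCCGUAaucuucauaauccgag
mir-55: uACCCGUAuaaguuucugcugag
mir-56: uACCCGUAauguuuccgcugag

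The second group, with the seed AUGACAC, includes neighbouring genes on chromosome III that lie within the gene gcn-1 on its strand, of which 3 are shown.
mir-229: aAUGACACugguuaucuuuuccaucg
mir-64: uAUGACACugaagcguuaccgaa
mir-66: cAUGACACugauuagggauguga

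The third is the let-7 seed GAGGUAG, carried by 5 genes. Shown are let-7 and mir-84 on X and mir-48 and mir-241 on chromosome V.
let-7: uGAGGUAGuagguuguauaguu
mir-84: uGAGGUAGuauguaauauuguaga
mir-48: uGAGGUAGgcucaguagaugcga
mir-241: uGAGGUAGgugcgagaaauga

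The only reproducible summit in the window of any microRNA gene lay at the mir-54 cluster. It was counted for mir-54, mir-55 and mir-56, which made 3 of 258 genes (1.16%) from 1 summit, where 0.160% of all 46890 nuclear genes had a reproducible summit in the same window. The region spans X 13145217 to 13145560 (ce11). Its summit was 295 bp upstream of mir-54, 465 bp upstream of mir-55 and 602 bp upstream of mir-56, and all 3 genes lie inside F09A5.3 on the opposite strand. No protein-coding gene start had this summit in its window, and the nearest was 3788 bp away. The summit also lay in the window of F09A5.11, a gene not annotated as protein-coding.

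The pooled signal at the mir-54 cluster was 33.3, rank 79 of the 2155 pooled regions, with a q value of 0.151. Replicate 1 had a summit at the same base, with a signal of 13.3, rank 300 and a q value of 0.0785. Replicate 2 had one 3 bp away, with a signal of 19.5, rank 50 and a q value of 0.0303. It was thus near the top of both lists, and the only pooled summit at a microRNA gene that ranked within the first 1000 in both. That is 1 of the 20 pooled summits at microRNA genes, or 5%, near the 5.57% of all nuclear pooled summits.

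The 201 bp about this summit hold none of the 3 motifs searched, which were TGACAG (the core bound by Meis proteins), TGATTGAC (the composite Pbx and Meis site) and GAGAGA, each on both strands. Its GC content was 55.7%, against a median of 37.8% over all nuclear pooled summits. The sequence is X:13145289-13145489 (ce11, plus strand).
mir-54 summit: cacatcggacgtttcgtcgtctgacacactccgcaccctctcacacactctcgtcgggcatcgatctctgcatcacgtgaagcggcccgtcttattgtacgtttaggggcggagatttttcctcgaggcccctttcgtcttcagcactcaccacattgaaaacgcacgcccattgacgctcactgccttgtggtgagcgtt

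**Figure D1:**
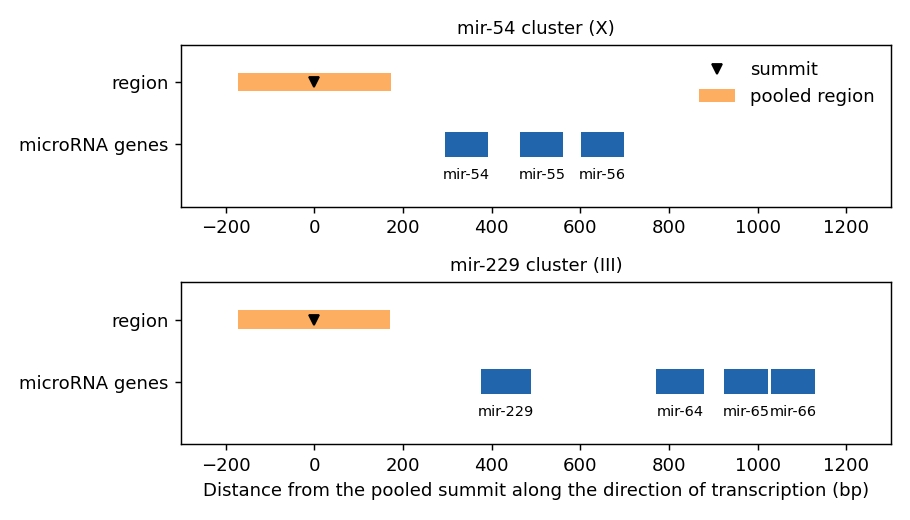
MicroRNA gene models (blue), pooled regions (orange) and pooled summits (triangles) at the mir-54 and mir-229 clusters, by distance from the summit in bp along the direction of transcription. Each summit lies before the first gene of its cluster, by 295 bp at mir-54 and by 375 bp at mir-229, and mir-66 begins 1031 bp after it, just beyond the window.

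Of the rest of the mir-51 family, mir-52 had a pooled summit and mir-51 and mir-53 had none. The mir-52 summit lay 57 bp upstream of the gene at IV 14033779 to 14034122, with a pooled signal of 18.7 and rank 802. Replicate 2 had 2 of its first 1000 regions there, at rank 105 with a signal of 16.3 and at rank 375 with a signal of 12.8. The nearest replicate 1 summit was 207 bp away, outside the 200 bp taken as a match, with a signal of 5.91 and rank 11921. The best replicate 1 summit in the mir-52 window was elsewhere, 819 bp upstream, with a signal of 10.3 and rank 1236. So the window held a high-ranked summit in replicate 2 and one just beyond the first 1000 in replicate 1, at different places. The family had 4 of 6 genes with a pooled summit, from 2 distinct summits, where 3.25% of all nuclear genes had one. At mir-51 the best window summits ranked 9386 in replicate 1 and 6232 in replicate 2. At mir-53 replicate 1 had one at rank 27435 and replicate 2 had none.

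Of the 7 genes listed as the let-7 family 1 had a pooled summit, and of the lin-4 family 0 of 2, counts too small to set against the 3.25% of all nuclear genes. At let-7, which represses lin-41, no pooled summit lay within 35058 bp of the annotated start. Its window held replicate summits of signal 7.37 (rank 5643) and 7.41 (rank 6244), 10 bp and 646 bp upstream of the start, which are not the same place. The let-7 model is 1732 bp long and begins with the primary transcript, whereas the median microRNA model is 96 bp. At lin-4, which represses lin-14, the window held no summit in any list, and the nearest pooled summit was 16611 bp away. At lsy-6, which represses cog-1, replicate 2 alone had a summit, at rank 21863. The gene with a pooled summit was mir-241, which acts with mir-48 and mir-84 on hbl-1. The summit lay 917 bp upstream, with a pooled signal of 18.9 and rank 750, a replicate 1 signal of 4.59 (rank 21949) and a replicate 2 signal of 10.6 (rank 1103). The lin-4 relative mir-237 had no pooled summit.

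Of the 8 genes mir-35 to mir-42, which act in embryos, and the 5 listed mir-58 family genes, none had a pooled summit. With 3.25% of all nuclear genes having one, a count of 0 in families of this size does not set them apart. The muscle gene mir-1 and the neuronal gene mir-124 had none, and the nearest to mir-1 was 756 bp downstream. At mir-34, a gene of the DNA damage response, replicate 2 had a summit 167 bp upstream, with a signal of 12.1 and rank 531, but neither replicate 1 nor the pooled list had one in the window.

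In all, 25 of 258 microRNA genes had a pooled summit in the window, or 9.69% (95% exact interval 6.37 to 13.97), from 20 distinct summits. The interval treats genes that share a summit as independent. Over all nuclear genes the share was 3.25%, and over protein-coding genes it was 3.56%. All nuclear genes include 15363 piRNA genes, most of them crowded on chromosome IV. Counted over DNA, the merged windows of the microRNA genes held 72.7 pooled summits per Mb, those of protein-coding genes 28.6, and the nuclear genome 21.3. Within the first 1000 regions of replicate 1 the count was 10 of 258 genes (3.88%), from 6 summits, where all nuclear genes had 1.67%. For replicate 2 it was 11 of 258 (4.26%), from 10 summits, where all nuclear genes had 1.45%. The share of microRNA genes was above that of all genes in each of these lists. Only mir-54, mir-55 and mir-56, which share 1 summit, were in both counts, which is 30% of the replicate 1 genes and 27.3% of the replicate 2 genes. Little overlap was not particular to microRNA genes. Of all nuclear pooled summits, 539 were within the first 1000 of replicate 1, 557 within those of replicate 2 and 119 within both. In the whole replicate lists the shares were near the background, with 104 genes (40.3%) against 36.0% in replicate 1 and 99 genes (38.4%) against 33.4% in replicate 2.

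**Figure D2:**
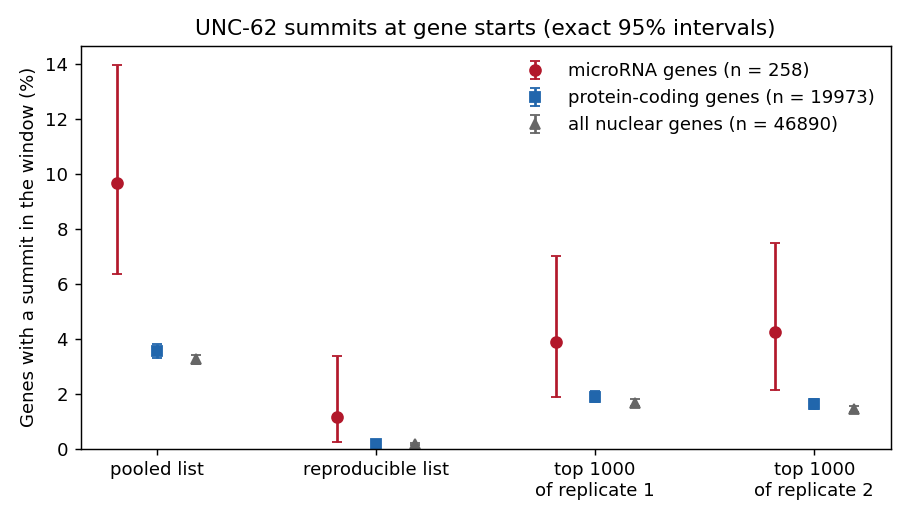
Share of genes with a UNC-62 summit in the window, in percent, for microRNA genes (red), protein-coding genes (blue) and all nuclear genes (grey). Points are shares, bars are exact 95% intervals that cover counting error only, and microRNA genes were at 9.69% in the pooled list against 3.56% and 3.25%. The intervals treat genes that share a summit as independent.

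Of the 233 microRNA genes with no pooled summit, 117 had none in either replicate, 77 had one in 1 replicate and 39 had one in both. Of all nuclear genes, 36.0% had a summit in the whole replicate 1 list and 33.4% in that of replicate 2. The same split over all genes with no pooled summit is not given here, so these counts do not set microRNA genes apart. Among the 233, 2 had one within the first 1000 regions of a replicate. These were mir-34 and mir-5595, at which replicate 1 had a summit 31 bp upstream with a signal of 14.7, rank 198 and a q value of 0.0424.

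Besides mir-54, the highest pooled signals were at mir-4929, mir-5549, mir-79 and the mir-229 cluster. At mir-4929 (II 13461993 to 13462336, within E01G4.3 on its strand) the summit was 301 bp upstream, with a pooled signal of 27.0 and rank 147. It was also 120 bp upstream of the start of a shorter E01G4.3 transcript, which the window of the gene's outermost start does not reach. The replicate 2 signal was 18.7 (rank 56, q value 0.0450) and the replicate 1 signal 7.31 (rank 5816). At mir-5549 (III 6971917 to 6972260) the pooled signal was 26.4 and the rank 165, and here replicate 1 was the higher, with 14.0 (rank 238) against 6.996 (rank 7781). That summit was 4 bp upstream of mir-5549, but it also lay in the windows of eef-1A.1, a translation elongation factor, and rfc-4, a clamp loader subunit of DNA replication.

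At mir-79, a gene with a role in neuron migration, the pooled signal was 24.8 (rank 195), with 17.1 in replicate 2 (rank 82) and 5.97 in replicate 1 (rank 11525). At the mir-229 cluster (III 2171905 to 2172248) the summit was 375 bp upstream of mir-229, 771 bp upstream of mir-64 and 925 bp upstream of mir-65. The pooled signal there was 23.2 (rank 265), with 13.1 in replicate 1 (rank 325) and 9.59 in replicate 2 (rank 1932). Each of these summits was high in one replicate and lower in the other.

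The 201 bp about the mir-229 summit held GAGAGA 4 times, counting both strands, and those about the mir-4929 summit held GAGAGA and TGATTGAC once each. They are shown as the windows that hold the motifs, in capitals, at III:2171977-2172177 and II:13462065-13462265 (ce11, plus strand).
mir-229 summit: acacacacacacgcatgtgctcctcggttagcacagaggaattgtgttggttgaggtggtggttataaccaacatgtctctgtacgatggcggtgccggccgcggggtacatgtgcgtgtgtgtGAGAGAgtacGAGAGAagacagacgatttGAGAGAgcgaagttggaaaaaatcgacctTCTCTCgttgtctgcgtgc
mir-4929 summit: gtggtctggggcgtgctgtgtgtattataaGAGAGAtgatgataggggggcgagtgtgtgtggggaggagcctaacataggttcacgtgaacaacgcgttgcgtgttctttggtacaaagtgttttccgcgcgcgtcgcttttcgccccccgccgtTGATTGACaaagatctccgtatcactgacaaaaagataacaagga

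At the 20 summits of microRNA genes, GAGAGA was within 100 bp of 6, or 30% (95% exact interval 11.9 to 54.3), and of 22.3% of all nuclear pooled summits. TGACAG was near 1, or 5%, against 8.66%. TGATTGAC was near 2, at mir-4929 and mir-71, or 10% (1.23 to 31.7), against 24 of 2136, or 1.12%. The mir-71 summit held TGACAG as well, at letters that do not overlap. In the whole 1201 bp window TGATTGAC was found for 12 of 258 microRNA genes (4.65%) and 3.39% of protein-coding genes, TGACAG for 31.4% and 34.4%, and GAGAGA for 59.7% and 50.9%. The counts at summits are small, and the differences were not tested.

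A stretch of chromosome I within ppfr-1, a phosphatase regulatory subunit gene, holds mir-71, which promotes long life and survival of arrested larvae, and mir-2. Both are on the strand of ppfr-1. At mir-71 the pooled summit was 106 bp upstream (signal 21.6, rank 372), with 15.6 in replicate 2 (rank 127, q value 0.0277) and 5.88 in replicate 1 (rank 12068). The replicate summits lay 260 bp upstream in replicate 2 and 18 bp upstream in replicate 1. Each was within 200 bp of the pooled summit, but they are not the same place. At mir-2 it was 249 bp upstream (signal 18.6, rank 813), and replicate 1 was higher, with 9.85 (rank 1559) against 6.21 (rank 11555). The replicates thus ordered these neighbours oppositely. Beyond the window, 2 reproducible summits in the same gene lay 1437 and 2925 bp upstream of mir-71. The nearer had a pooled signal of 43.6 (rank 38), but ranked 5250 in replicate 1 and 14229 in replicate 2. The farther had a pooled signal of 31.6 (rank 90) and ranked 137 and 2822. No other microRNA gene start had a reproducible summit between the window and 5 kb.

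Further summits were at mir-788 on X and at autosomal genes. The mir-788 summit (X 8485444 to 8485787) was 245 bp upstream, in no window of a protein-coding gene, with a pooled signal of 21.3 (rank 392), 13.4 in replicate 1 (rank 286) and 9.39 in replicate 2 (rank 2172). At mir-90 (III 8874356 to 8874699, in an intron of K01F9.2) the pooled signal was 18.01 (rank 980), with 10.01 in replicate 1 (rank 1436) and 13.4 in replicate 2 (rank 283). At mir-1831 the pooled signal was 21.1 (rank 419), with 12.4 in replicate 1 (rank 457) and 6.42 in replicate 2 (rank 10453). This gene is annotated as a small nuclear RNA and lies inside sup-39, also annotated as one, and the summit also lay within C15F1.5 and in the windows of eif-2Bgamma, a translation initiation factor subunit gene, C15F1.14 and 21ur-14704. It cannot be assigned to any of them, and its value is uncertain if reads were shared with similar copies.

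The remaining summits had pooled signals from 15.5 to 16.9. At mir-1820 replicate 2 ranked 325 and replicate 1 ranked 17837. At mir-256 the ranks were 944 and 4512 in that order. At mir-252 replicate 1 had no summit within 200 bp. At mir-5547, mir-354, mir-4936, mir-356.1 and the pair mir-61 and mir-250 neither replicate ranked within the first 1000. Several of the remaining summits also lay in windows of protein-coding genes. The mir-354 summit lay in those of rps-20, a ribosomal protein gene, and ekl-4, and the mir-256 summit in that of mec-1. The mir-4936 summit lay in the window of nduf-9, and that of mir-61 and mir-250 in the window of F55A11.4. The mir-356.1 summit lay in the windows of coq-5, tomm-7 and ufm-1, and in an exon of ufm-1. In no such window, the mir-5547 and mir-1820 summits lay in exons of sinh-1 and C46A5.1.

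**Figure D3:**
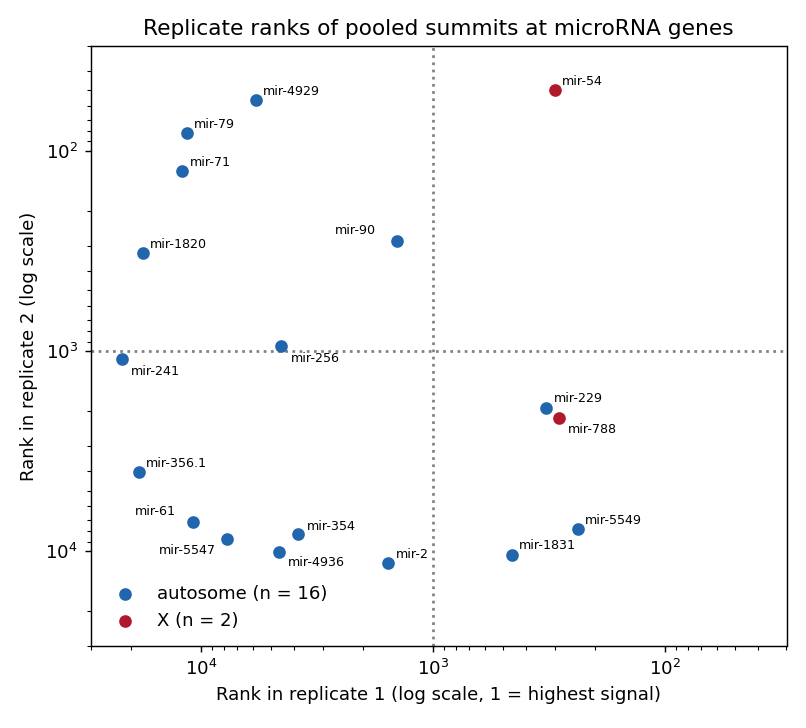
Rank by signal in replicate 1 (x axis) and replicate 2 (y axis), both on log scales with the highest signal at the right and top, for the 18 pooled summits at microRNA genes matched within 200 bp in both. Dotted lines mark rank 1000, and only the mir-54 summit lies above it in both.

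Over the 20 summits, 18 were matched in both replicates (90%), where 76.4% of all nuclear pooled summits were. Within the first 1000, 5 were found in replicate 1 (25%, against 25.2% of all nuclear pooled summits) and 8 in replicate 2 (40%, against 26.1%), and 8 were in neither. Across the 18, replicate 2 ranked 10 higher and replicate 1 ranked 8, and Spearman's rho of the ranks was −0.18, a description over summits that were chosen for a high pooled signal and share the same 2 libraries. The median pooled signal was 18.6 at microRNA genes and 17.6 over all nuclear pooled summits.

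Summits were upstream of the gene in 17 of 20 cases, with a median over all 20 of 279.5 bp upstream of the nearest microRNA start. The window takes in 1000 bp upstream and only 200 bp downstream, so its shape alone puts most summits upstream. The count within 300 bp upstream was 8, and 3 lay inside or after the start. Of the 20, 13 were in no window set by the outermost start of a protein-coding gene, among them that of mir-4929, and 7 were in one as well. Those at mir-54, mir-79, mir-71, mir-1831, mir-52, mir-2 and mir-252 also lay in windows of other genes not annotated as protein-coding. The members just inside the window were mir-5547 at 978 bp and mir-356.1 at 974 bp, and those just outside were mir-66 at 1031 bp and mir-2221 at 1205 bp upstream and mir-228 at 273 bp downstream. By place, 9 of 73 microRNA genes within a protein-coding gene on the same strand had a pooled summit (12.3%, 5.80 to 22.1), 4 of 32 on the opposite strand (12.5%, 3.51 to 29.0) and 12 of 153 outside (7.84%, 4.12 to 13.3). These intervals overlap. The 9 genes had 7 distinct summits, the 12 had 11, and the 4 had 2, of which 1 was that of the 3 mir-54 cluster genes. Of all nuclear genes 3.25% had a pooled summit, and the share of other genes placed in these ways is not given here.

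**Figure D4:**
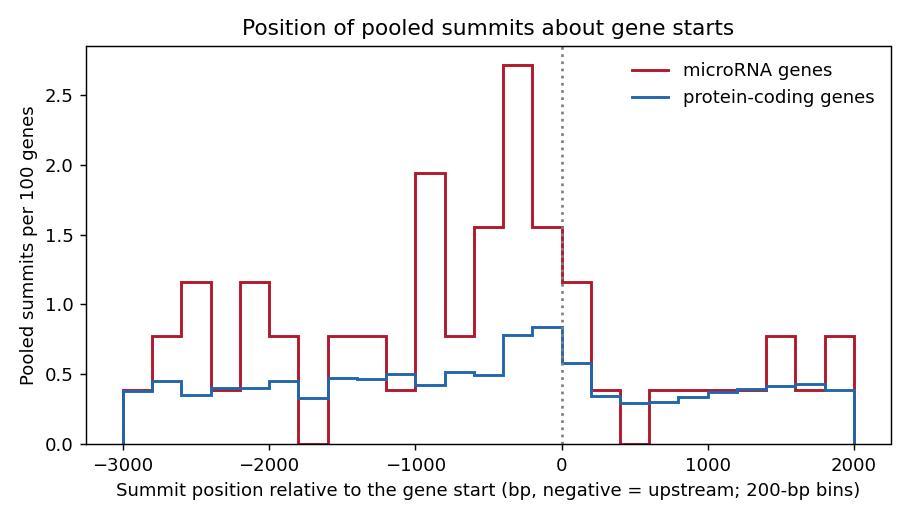
Pooled summits per 100 genes in 200 bp bins about the annotated start, upstream to the left, for microRNA genes (red) and protein-coding genes (blue). The highest microRNA bin, 200 to 400 bp upstream, holds 7 pairs of a gene and a summit, or 2.71 per 100 genes, and clustered genes under 1 summit each count.

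To compare X with autosomes, microRNA genes with overlapping windows were joined into 219 loci, of which 22 held more than 1 gene, so that genes sharing a summit counted once. Of all 219 loci, 20 had a pooled summit, or 9.13% (95% exact interval 5.67 to 13.8). On X, 72 genes formed 54 loci, and 2 of these had a pooled summit, or 3.70% (95% exact interval 0.452 to 12.7). They were the mir-54 cluster and mir-788. On autosomes, 186 genes formed 165 loci, and 18 had one, or 10.9% (6.59 to 16.7). The intervals overlap, and the difference was not tested. Protein-coding genes, counted by gene and not by locus, had the opposite order, with 4.76% on X and 3.37% on autosomes. By gene, microRNA genes had 5.56% on X and 11.3% on autosomes, and all nuclear genes had 5.26% and 2.96%. X held 487 of the 2136 nuclear pooled regions (22.8%).

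The order of X and autosomal microRNA loci varied with the list. Within the first 1000 regions the count was 2 of 54 on X and 4 of 165 on autosomes (2.42%) in replicate 1, and 2 of 54 and 7 of 165 (4.24%) in replicate 2. All nuclear genes, counted by gene, had 2.31% on X and 1.58% on autosomes in replicate 1, and 2.39% and 1.31% in replicate 2. The reproducible list had 1 on X and 0 of 165 on autosomes, for which the exact interval reaches 2.21%. In that list all nuclear genes had 0.349% on X and 0.132% on autosomes. The microRNA counts on X are of 1 or 2 loci, and the differences were not tested. With as many top regions of 1 replicate as the pooled list holds, the autosomal count fell to 10 of 165 (6.06%) for either replicate, while X stayed at 2 of 54. By density, windows of X-linked microRNA genes held 28.5 pooled summits per Mb and the whole of X 27.5, while autosomal microRNA windows held 87.9 and the autosomes 20.0. Windows of protein-coding genes held 40.1 per Mb on X and 26.7 on autosomes. The value for X-linked microRNA genes rests on 2 summits in 70.3 kb. By chromosome, loci with a pooled summit numbered 4 of 32 on I, 4 of 41 on II, 5 of 22 on III, 2 of 46 on IV and 3 of 24 on V. Protein-coding genes with a pooled summit, counted by gene, numbered 108 on I, 108 on II, 114 on III, 113 on IV and 138 on V. Chromosome III has fewer protein-coding genes than IV, so their share was also higher on III than on IV. The locus counts by chromosome are small, and their differences were not tested.

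**Figure D5:**
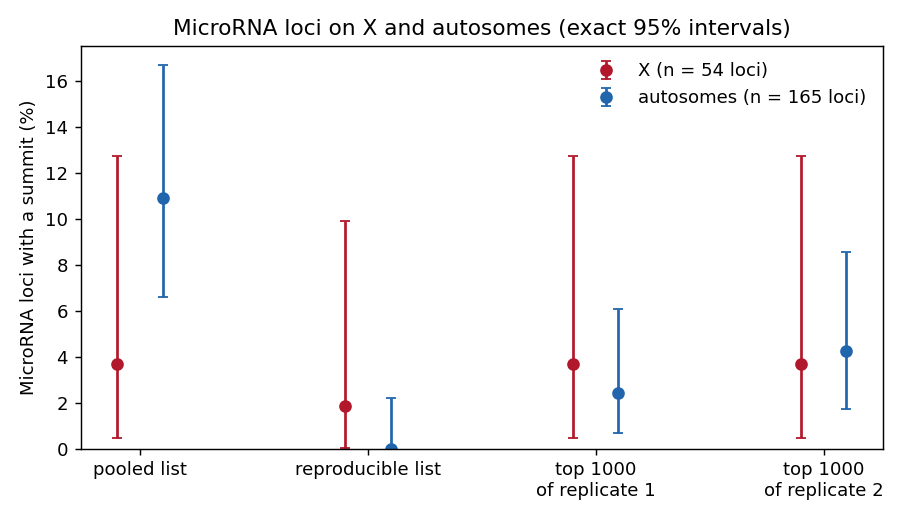
Share of microRNA loci with a UNC-62 summit on X (red, 54 loci) and autosomes (blue, 165 loci), in percent, by list. Bars are exact 95% intervals, which overlap in each list, and the pooled shares are 3.70% and 10.9%.

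Genes that make or use microRNAs, or are their targets, were taken from a list of 24. Of the 15 in biogenesis and silencing, 3 had a pooled summit at their start, and none was reproducible. They were ain-1, a GW182 protein of the silencing complex (pooled signal 26.4, rank 163), nhl-2, a cofactor of that complex (23.9, rank 227), and lin-28, which blocks let-7 processing (18.2, rank 920). At ain-1 the signal was 13.4 in replicate 1 (rank 287) and 11.5 in replicate 2 (rank 728), and at nhl-2 it was 10.9 (rank 909) and 15.2 (rank 147), so both ranked within the first 1000 in both replicates. At lin-28 the ranks were 5100 and 5783. The Drosha gene drsh-1, its partner pash-1, the Dicer gene dcr-1 and the Argonaute genes alg-1 and alg-2 had no pooled summit at their starts. Of the 10 targets lin-28 alone had one at its start. Away from their starts, lin-14 had 2 pooled summits in the gene or within 1 kb of it, and lin-41 and daf-12 had 1 each, while hbl-1 and cog-1 had 0. Among the biogenesis and silencing genes with no start summit, ain-2 had 2, cgh-1 and tsn-1 had 1 each, and the rest had 0. The share of all protein-coding genes with a summit in this wider span was not counted, so these counts do not set the genes apart. For all 24 genes the count was 3 (12.5%), against 3.56% of protein-coding genes.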

How the data were processed

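UNC-62 ChIP-seq lists of 2 replicates in 1 group were used, on build ce11. Per the file lists deposited with the samples, each replicate list came from that replicate's alignment and 1 further file, also an input of the control-normalized tracks; the pooled list came from both alignments. Aligner and caller: not given in the sources used here. The deposited signal (column 7) and the deposited −log10 q value (column 9) are the authors' values per region, and were used only to describe and rank regions within a list. The ce10 lists were not used, since no ce10 gene models were given. Depth is unknown.

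Gene positions came from Ensembl release 115 and symbols and mature strands from RefSeq, both WBcel235; 258 of 258 members had a RefSeq symbol and 257 a mature strand. The mir-1834 gene of the mir-58 list was not found under that symbol; mir-58.1 and mir-58.2 stand for mir-58. Summits were start plus summit offset, which put nearly all at the centre of their region, and were matched between lists by the nearest within 200 bp. Intervals are exact binomial at 95% and cover counting error only. Those over genes treat genes that share a summit as independent. No test across genes was made, since there is 1 group. Named were the microRNA genes with a pooled summit, the fixed families and the pathway list; mir-5595, mir-2221 and mir-228 were chosen after their values were seen. Members and lists were chosen with earlier results of these data known. The counting was tested on simulated data with planted summits. Intervals used scipy 1.17.1 under Python 3.11.15, and plots matplotlib 3.10.9. Mature strands are printed for some genes only, and 1 further strand is not reported here.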

Additional observations from a re-analysis of the deposited data

How the results depend on the processing

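No paired analysis was possible because there is 1 group. Of 54 comparisons of a count or share with an alternative setting, 41 stayed within 1.5 times the count or within the interval of the share. The count of microRNA genes with a pooled summit (25) was 16 when the window was narrowed to 500 bp before and 100 bp after the start, 16 without genes inside a protein-coding gene on the same strand, and 16 in the 1077 pooled regions of highest signal. With 1 replicate left out, that is, with as many top regions of the other replicate as the pooled list holds, it ranged from 17 to 19. Loci with a pooled summit (20) numbered 13 without same-strand host genes, 12 in those 1077 regions and 12 with either replicate left out. The autosomal share (10.9%) was 6.06% in those 1077 regions and with either replicate left out, where the X share stayed at 3.70%. The first 1000 regions of replicate 1 gave 10 genes, or 6 without same-strand host genes. The first 2000 gave 19 in replicate 1 and 17 in replicate 2. Adding 3 genes named as microRNAs by Ensembl alone, chosen after the data were seen, left 25 genes and 20 loci. Summits matched in both replicates numbered 13 at 100 bp and 19 at 500 bp. The 71 matched signals compared were equal by construction. The nearest replicate summit was taken before the limit, which can drop a match but cannot change its signal. Why the counts moved was not tested. The shares of all nuclear genes at these other settings are not given here. The changed counts therefore do not show whether the difference from all nuclear genes holds at those settings. The lists give no read depth, so a gene with no summit is not shown to be unbound.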

Other observations

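CACGTG, a palindrome bound by basic helix-loop-helix proteins, lay within 100 bp of 4 of the 20 pooled summits at microRNA genes, those of mir-79, mir-4929, mir-256 and the mir-54 cluster. That is 20% (95% exact interval 5.73 to 43.7), against 4.07% of all nuclear pooled summits. The motif was chosen after the sequences were seen, and the difference was not tested.

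The median GC content of the 201 bp about the summits was 43.5% at microRNA genes and 37.8% over all nuclear pooled summits. The median distance from a gene start to the nearest pooled summit was 14.9 kb for microRNA genes and 19.6 kb for protein-coding genes. On X it was 18.5 kb for microRNA genes and 13.8 kb for protein-coding genes, and on autosomes 14.5 kb and 21.0 kb.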
